A study of Mus musculus with 28 samples.

Results

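The 10 transcripts described here are the keratins of the interfollicular epidermis, the skin surface between hair follicles: Krt5, Krt14 and Krt15 of the basal layer, and Krt1, Krt10, Krt2, Krt77, Krt78, Krt80 and Krt24 of the layers above it. They were taken by gene symbol from 4 deposited tables of normalized counts per library, and all 10 were found among the 24946 gene symbols of each table. In the study Kdm6a (Utx), which lies on chromosome X and encodes a demethylase of H3K27, was deleted in mouse epidermis with Krt14-Cre, a recombinase driven by the promoter of one of these keratins. Krt14-Cre acts in keratinocytes of the basal layer and in their descendants, and not in resident immune cells or melanocytes.

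The female controls were labelled Cre-; Utx fl/fl and the female conditional knockouts (cKO) Cre+; Utx fl/fl, while heterozygous females were Cre+; Utx +/fl. The male cKO libraries were labelled Cre+; Utx fl/Y. The male controls were Cre-; Utx fl/Y, except control 3, which was Cre-; Utx +/Y and so had no floxed allele. Every cKO library thus carried Cre and every control lacked it, so that the deletion and the Cre transgene cannot be told apart. The tables hold 4 control and 5 cKO libraries of young females, 3 and 3 of young males, 2 and 2 of aged females, and 3 and 3 of aged males. The words young and aged are those of the table titles, the labels give neither strain nor age, and replicate numbers only name libraries. Nothing in the labels says that replicates were separate animals, so p-values measure the spread between these libraries, which may be technical.

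Normalized counts summed to between 19.3 M and 31.1 M in a library, with 16405 to 17923 genes above 0. In young mice and aged females Kdm6a separated the groups, lower in each cKO library than in any control. The drop was smallest in young females, with 873 to 1154 in cKO libraries and 1265 to 1663 in controls. The ratio of the means, cKO over control, was 0.71 there, 0.52 in young males and 0.43 in aged females. In aged males the library labelled cKO 5 had 1322 of Kdm6a, against 1090 to 1511 in the libraries labelled control. Gh, the growth hormone gene, was at most 2.58 in the controls of the other 3 tables and at least 331 in their cKO libraries, but in aged males it was 2443 and 559 in the libraries labelled control 5 and control 6 and 0 in the one labelled cKO 5. These 3 aged male libraries go against the pattern of the other tables, so the aged male tests are also given without them. Both aged female cKO libraries had almost no Xist (17.1 and 14.4, against 18431 and 20923 in the controls). Aged male libraries, which were scaled separately, had 5.69 to 59.0. A difference of sex thus cannot be told apart from one of genotype in any aged female comparison. Markers of basal and suprabasal keratinocytes were high in all 25 libraries, and Krt9, the keratin of footpad epidermis, was at most 24.3.

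Keratins are the intermediate filament proteins of epithelia. A filament forms from pairs of 1 acidic (type I) and 1 basic (type II) keratin, and in mouse epidermis the pair Krt5 and Krt14 of the dividing basal layer gives way to Krt1 and Krt10 when a cell leaves that layer. Krt10, Krt14, Krt15 and Krt24 are type I genes and lie in the cluster on chromosome 11, and Krt1, Krt2, Krt5, Krt77, Krt78 and Krt80 are type II genes and lie in the cluster on chromosome 15 (GRCm38). Krt1 occupies chr15:101845426-101850794 on the minus strand, with Krt2 (101810689 to 101818169) on one side at a distance of 27.256 kb and Krt77 (101858731 to 101869705) on the other at 7.936 kb. Krt10 lies at chr11:99385254-99389364, also on the minus strand, and overlaps the antisense gene Gm11940.

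RefSeq promoters (GRCm38.p6) were matched for 7 of the 10 genes, not for Krt1, Krt15 and Krt80. The 120 bases before the annotated start are shown for the genes on either side of Krt1, and for Krt10 and Krt78. Of all pairs of the 10 keratins, these 2 had the ratio that varied least over the libraries. Capitals mark matches to TATANA on either strand, the core of a TATA box, joined where they overlap. The letters of this motif were chosen after the sequences had been seen.
Krt2, chr15:101818170-101818289, minus strand: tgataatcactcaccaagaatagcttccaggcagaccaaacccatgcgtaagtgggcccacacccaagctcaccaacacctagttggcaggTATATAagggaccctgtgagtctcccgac
Krt77, chr15:101869706-101869825, minus strand: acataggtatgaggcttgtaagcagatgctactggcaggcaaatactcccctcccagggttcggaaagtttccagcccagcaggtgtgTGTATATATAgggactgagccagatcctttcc
Krt10, chr11:99389365-99389484, minus strand: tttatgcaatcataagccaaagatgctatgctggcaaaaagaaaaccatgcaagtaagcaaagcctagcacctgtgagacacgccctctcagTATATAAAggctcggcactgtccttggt
Krt78, chr15:101954288-101954407, minus strand: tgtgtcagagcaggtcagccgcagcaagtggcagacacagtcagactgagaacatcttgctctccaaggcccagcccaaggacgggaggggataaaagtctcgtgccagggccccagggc
TATANA was found in 4 of the 7 matched promoters (Krt10, Krt2, Krt24 and Krt77), against 10.97% of 32851 RefSeq promoters in the same window. The RefSeq window of Krt14, counted among the 7, was chr11:100206031-100206150. It lies inside the gene as annotated by GENCODE (100203162 to 100207548, minus strand), so the bases before that start were not searched. The AP-1 motif TGANTCA, searched on both strands, was in 0 of 7, against 3.41% of all, and CCAAT was in 1 of 7 (Krt24), against 21.3%. A match is a description of letters and does not show that a factor binds there.

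Together the 10 keratins made up 5.15% to 7.05% of all normalized counts of a library, and the 10 levels spanned more than 3 orders of magnitude. Divided by the length of the longest coding transcript, the mean level in young female controls was 153431 ± 18245 normalized counts per kb (SD, n = 4) for Krt10, the highest of 24464 genes with a length. Krt77 followed with 118802 ± 17275, Krt5 with 99342 ± 7629, Krt15 with 86843 ± 10762 and Krt14 with 58828 ± 13704 per kb. In this order each of the first 4 overlapped its lower neighbour in range over the 4 controls, so these libraries do not resolve neighbours in it, while Krt10 was above Krt5, Krt77 above Krt15 and Krt5 above Krt14 without overlap. Krt1 stood below all of them at 15376 ± 2028 per kb, although it encodes the usual partner of Krt10, and its range did not overlap that of Krt14 above or Krt80 below (9484 ± 1017). Krt78 had 1038 ± 37.5, Krt24 228 ± 116 and Krt2 33.2 ± 8.79 per kb, and these ranges did not overlap. The control means had the same order in young males and aged females, and in aged males only Krt2 and Krt24 changed places, with overlapping ranges.

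**Figure D1:**
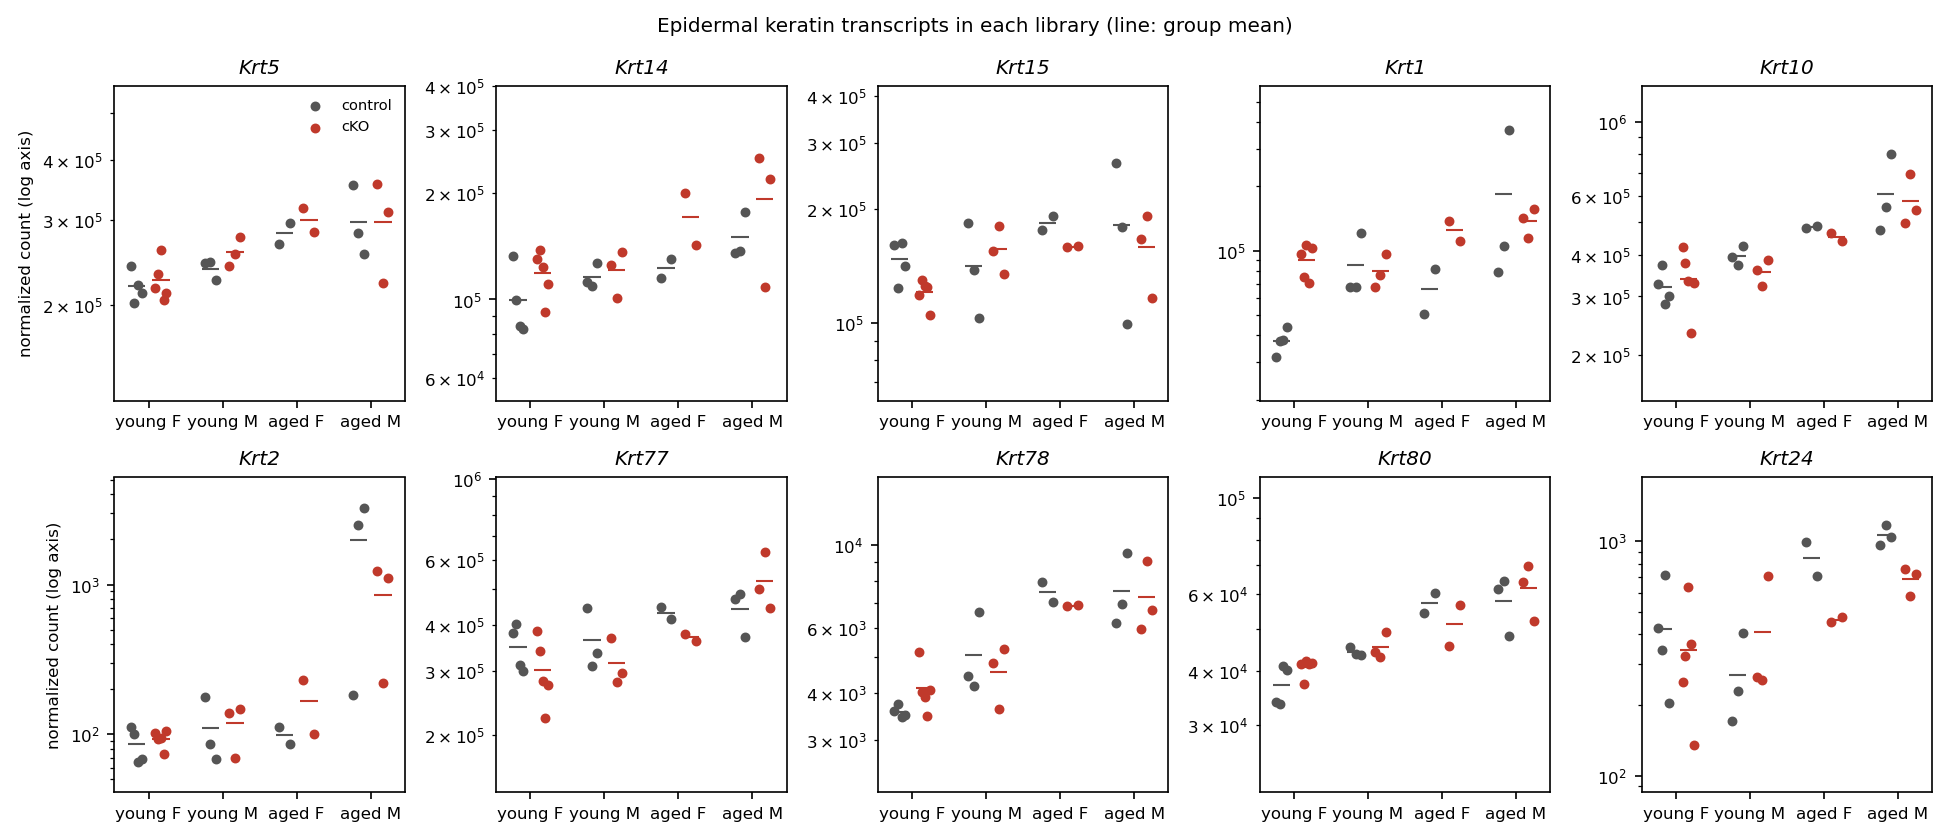
Normalized counts of the 10 keratins in each of the 25 libraries (log axis, a separate range for each gene), by table and group, F for females and M for males; points are libraries and lines are group means. In young females the 5 cKO libraries have 70723 to 105943 of Krt1 against 31552 to 43738 in the 4 controls, and the other 9 keratins overlap. The tables were scaled separately, so that levels are compared only within a table.

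The question that each table addresses is whether these keratins differ between cKO and control epidermis. All tests below are limma's moderated test on log2(value + 1), fitted over all genes of a table that passed a filter on low values, with Benjamini-Hochberg adjustment and a threshold of 0.05, and a change is that of cKO over control on this log2 scale. All 10 keratins passed the filter in every table.

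In young females, 1 of the 10 keratins was called, and that was Krt1. Over all 13898 tested genes 3.94% were called, and 1.54% were called with a rise. Krt1 values in controls 1 to 4 were 31552, 37649, 38052 and 43738, and in cKO 1 to 5 they were 96099, 75306, 105943, 70723 and 103204. Every cKO library was above every control, and the lowest cKO value was well clear of the highest control value. The ratio of the means was 2.39, and the log2 change was 1.25 (SE 0.17, 95% interval 0.87 to 1.62, limma adjusted p = 0.00322). The exact two-sided permutation test on these 9 libraries gave p = 0.00794, the smallest that 126 splits allow. Values that do not overlap were found for 8.63% of the tested genes. In the 3 series of library numbers that hold young female libraries of both groups, the Krt1 change was 1.19 to 1.30, above 0 in 3 of 3. In the authors' deposited table Krt1 had a log2 change of 1.26 (SE 0.16, adjusted p = 7.17e-13), in a table where 7.17% of the genes with an adjusted p were called.

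Krt10, the type I partner of Krt1, had 326637, 372608, 285523 and 300371 in the young female controls and 421674, 378316, 334322, 233793 and 328071 in the cKO libraries. The groups overlapped over most of their range, with the lowest value of all 9 libraries in cKO 4 and the highest in cKO 1. Its log2 change was 0.06 (SE 0.24, 95% interval -0.47 to 0.59, limma adjusted p = 0.925), an interval that lies below the whole interval of Krt1. The ratio of Krt1 to Krt10 within a library does not depend on how libraries were scaled. It was 0.0966, 0.101, 0.133 and 0.146 in controls 1 to 4 and 0.228, 0.199, 0.317, 0.303 and 0.315 in cKO 1 to 5. All 5 cKO libraries thus had more Krt1 per Krt10 than any control, yet Krt1 counts stayed below those of Krt10 in each of them.

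**Figure D2:**
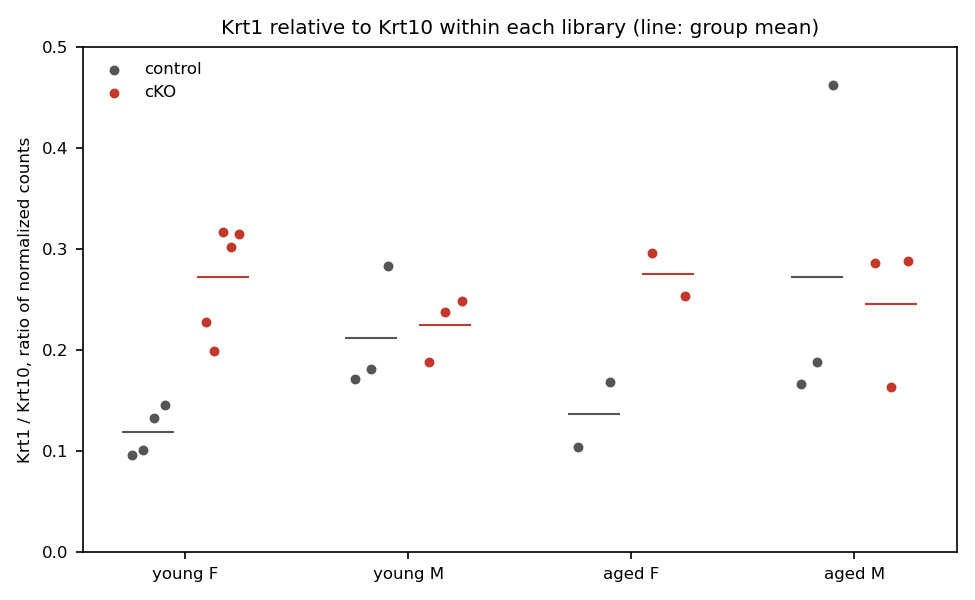
Ratio of Krt1 to Krt10 normalized counts in each library (vertical axis from 0), by table and group; points are libraries and lines are group means. The ratio is 0.0966 to 0.146 in the young female controls and 0.199 to 0.317 in the cKO libraries, while the groups of young males overlap.

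Markers of some other cell types also moved with the young female groups, and those of most did not. The summed level of 4 Langerhans cell markers (Cd207, Cd74, H2-Aa and Epcam, all detected) ran from 17119 to 21735 in controls and from 22452 to 31152 in cKO libraries, without overlap. The sum of 9 hair shaft keratins, which were near the floor, lay between 41.1 and 59.6 in controls and between 17.6 and 37.1 in cKO libraries, also without overlap. The 6 basal keratinocyte markers overlapped, with 369864 to 447143 in controls and 405392 to 485003 in cKO libraries. Suprabasal markers, among them Krt1 and Krt10, overlapped too, with 491921 to 679392 in controls and 442366 to 795729 in cKO libraries. So did the sums for inner root sheath and companion layer, fibroblasts, skeletal muscle, adipocytes, sebocytes, T cells, melanocytes and endothelium. The part of these markers in the Krt1 result was not tested. In whole epidermis, a change in the number of suprabasal cells and a change in RNA per cell cannot be told apart.

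Of the basal keratins in young females, none was called. Krt5, the basal type II keratin, ranged from 201684 to 240986 in controls and from 204817 to 259851 in cKO libraries (log2 change 0.04, 95% interval -0.36 to 0.44). Krt14, its type I partner and the gene whose promoter drives Cre, had 132886, 99585, 84288 and 82798 in controls and 129855, 138226, 123496, 92184 and 110361 in cKO libraries. The groups overlapped, with controls 1 and 2 both above cKO 4, and the log2 change was 0.26 (SE 0.20, 95% interval -0.17 to 0.70, limma adjusted p = 0.560). Krt15, a type I keratin of basal cells and of follicle stem cells, had 124243 to 163223 in controls and 105112 to 130336 in cKO libraries (log2 change -0.28, 95% interval -0.65 to 0.08, limma adjusted p = 0.433). The exact permutation test gave p = 0.0317 for Krt15, not adjusted for the number of keratins tested. Some of these sequences are shared with other keratins: 12.2% of the 50-base words of Krt5 transcripts also occur in other genes, most in Krt6a, and 13.9% of those of Krt14, most in Krt16. For Krt1 and for Krt2, Krt77, Krt78 and Krt24 that share was 0.

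The remaining suprabasal keratins of young females were not called either. Krt77, a type II keratin of suprabasal epidermis in the mouse and the nearest neighbour of Krt1, had 298900 to 402137 in controls and 223269 to 385962 in cKO libraries (log2 change -0.23, 95% interval -0.76 to 0.30). Krt2, a keratin of the upper layers in ear, sole and tail skin of the mouse and the neighbour on the other side, had 65.6 to 111.7 in controls and 74.2 to 105 in cKO libraries (log2 change 0.14, 95% interval -0.32 to 0.59). Both intervals exclude a change as large as the 1.25 of Krt1. Krt78, another type II keratin of suprabasal cells, had 3459 to 3747 in controls and 3465 to 5148 in cKO libraries (log2 change 0.20, 95% interval -0.04 to 0.44). Krt80, a type II keratin found near cell borders in differentiating epithelia, had 33611 to 41012 in controls and 37305 to 42132 in cKO libraries (log2 change 0.14, 95% interval -0.12 to 0.40). Krt24, a type I keratin of differentiating keratinocytes, spread from 204 to 713 in controls and from 136 to 637 in cKO libraries. Its log2 change was -0.33 (95% interval -1.29 to 0.62), an interval that excludes a rise of 1.25 but holds a fall of that size.

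In young males none of the 10 keratins was called, among 13743 tested genes of which 0.0146% were called, and the groups did not separate for any of the 10, against 5.88% of all genes. Krt1 had 67506, 67484 and 120905 in controls 1 to 3 and 67509, 76901 and 96161 in cKO 1 to 3. The highest library was control 3, the one without a floxed allele, and all 3 cKO values lay within the range of the controls. The log2 change was -0.05 (SE 0.28, 95% interval -0.70 to 0.61, limma adjusted p = 0.9999), an interval that excludes a change of 1.25. The ratio of Krt1 to Krt10 was 0.172 to 0.284 in the controls and 0.188 to 0.249 in the cKO libraries. The young male controls were thus above the highest young female control in this ratio, 0.146, as a comparison of levels between libraries of different tables that was not tested. For Krt10 the change was -0.16, for Krt5 0.11, for Krt14 0.06 and for Krt15 0.17. Krt24 had 171, 230 and 407 in controls and 264, 254.6 and 711 in cKO libraries (log2 change 0.52, 95% interval -0.51 to 1.56), with library 3 of each group the highest.

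**Figure D3:**
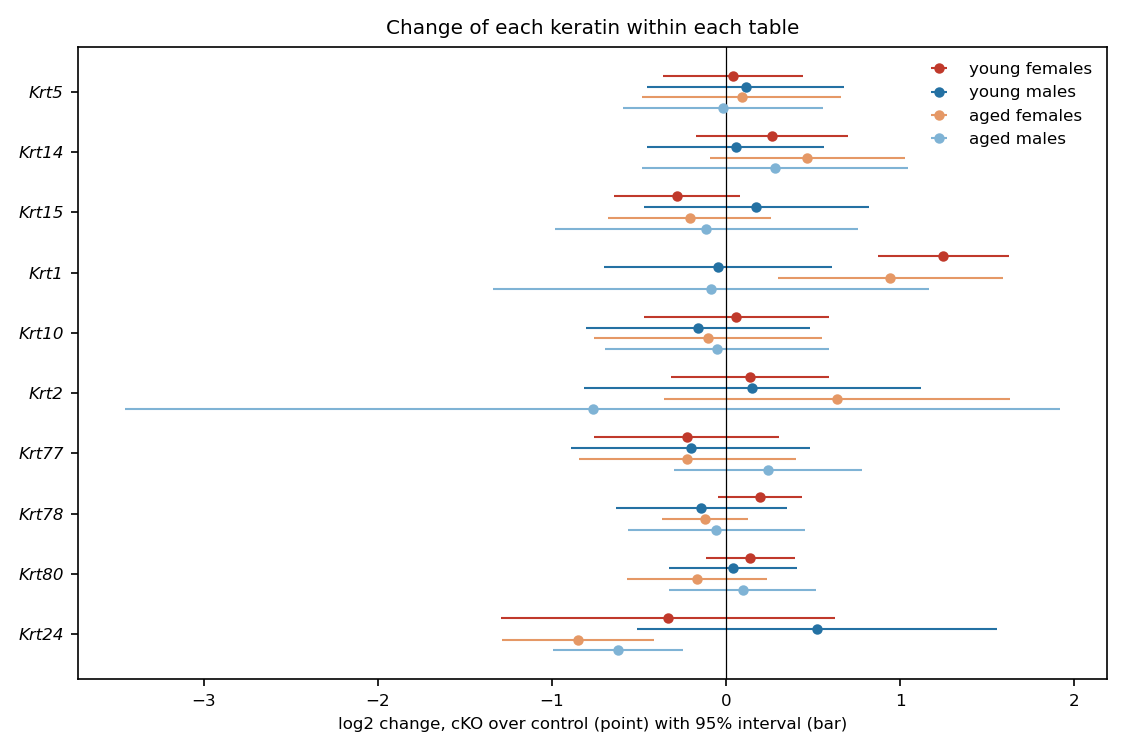
Log2 change of cKO over control for the 10 keratins (points, with 95% intervals from limma as bars) in the 4 tables. Krt1 in young females stands at 1.25, with an interval from 0.87 to 1.62, and in young males at -0.05; the interval of Krt2 in aged males runs from -3.45 to 1.92.

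In aged females, with 2 libraries in each group, limma called none of the 10 keratins, among 14652 tested genes of which 0.669% were called. Krt1 was at 50358 and 82237 in controls 5 and 6 and at 137600 and 111450 in cKO 6 and 7. Both cKO values were above both controls, and the log2 change was 0.94 (SE 0.27, 95% interval 0.30 to 1.59, limma adjusted p = 0.187). Krt24 was at 986 and 708 in these controls and at 452 and 474 in these cKO libraries, lower in both (log2 change -0.85, SE 0.18, 95% interval -1.29 to -0.41, limma adjusted p = 0.102). The authors' deposited table called these 2 keratins, with log2 changes of 0.91 for Krt1 (adjusted p = 0.00230) and -0.87 for Krt24 (adjusted p = 0.00338), in a table where 4.50% of the genes were called. Krt14 had 114605 and 130258 in controls and 199836 and 142824 in cKO libraries, with cKO 6 the highest (log2 change 0.47, 95% interval -0.09 to 1.03). The groups did not overlap for 7 of the 10 keratins, 2 of them higher and 5 lower in cKO, but with 2 against 2 this held for 44.3% of all tested genes, and the exact test cannot go below p = 0.333. The ratio of Krt1 to Krt10 was 0.105 and 0.169 in controls and 0.297 and 0.254 in cKO libraries, without overlap. Both cKO libraries had almost no Xist, as in the male libraries, so that sex and genotype cannot be told apart in these values.

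Some other cell markers differed between the aged female groups as well. The sum of 6 inner root sheath and companion layer markers was 14340 and 13895 in controls and 8805 and 8752 in cKO libraries. That of 9 hair shaft keratins was 2524 and 129 in controls and 74.4 and 79.1 in cKO libraries, and that of 5 sebocyte markers was 62966 and 75813 against 38195 and 50209. The sums for adipocytes and endothelium were also lower in both cKO libraries. Those for fibroblasts (994 to 1097 in controls, 1213 to 1283 in cKO), T cells (1049 to 1057, 1192 to 1243) and melanocytes (973 to 1077, 1312 to 1678) were higher. Those for basal and suprabasal keratinocytes, Langerhans cells, skeletal muscle and footpad overlapped. With 2 libraries in each group, 44.3% of all tested genes did not overlap. The part of these markers in the Krt1 and Krt24 values was not tested.

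In aged males none of the 10 keratins was called, among 14330 tested genes of which 0.0140% were called. Krt1 had 79119, 104646 and 369500 in the libraries labelled control 4, 5 and 6 and 142171, 114230 and 156852 in those labelled cKO 4, 5 and 6. Control 6 was the highest of the 6 libraries for Krt1 and, with 799108, for Krt10, and its ratio of Krt1 to Krt10 was 0.462. The log2 change of Krt1 was -0.09 (SE 0.53, 95% interval -1.34 to 1.16), an interval wide enough to hold 0.94, the change in aged females. Without the 3 libraries whose Gh or Kdm6a went against their labels, 1 control and 2 cKO libraries were left, and Krt1 was 0.92 (limma adjusted p = 0.9998), with the lone control assumed to vary like the others. The ratio of Krt1 to Krt10 in these 3 libraries was 0.167 in control 4 and 0.287 and 0.288 in cKO 4 and 6. Krt2 had 184, 2496 and 3238 in the libraries labelled control and 1236, 221 and 1103 in those labelled cKO. The libraries labelled control 4 and cKO 5 were low in both Krt2 and Gh (Gh 0.948 and 0), and the other 4 were high in both (Gh 559 to 2443). In the other tables, which were scaled separately, Krt2 was at most 232, also in their cKO libraries, where Gh was 331 to 820. High Gh thus went without high Krt2 there. The part of Gh in the Krt2 values was not tested. The Krt2 log2 change by label was -0.77 (SE 1.15, 95% interval -3.45 to 1.92). Without the same 3 libraries Krt2 was 2.66 higher in cKO (limma adjusted p = 0.00466), the reverse sign, in a fit that called 58 of 15028 tested genes (0.386%), against 2 of 14330 with all 6 libraries. Krt24 had 960, 1167 and 1044 in the libraries labelled control and 762, 581 and 725 in those labelled cKO, the only 1 of the 10 without overlap, where 4.57% of tested genes had none. Its log2 change was -0.62 (SE 0.16, 95% interval -0.997 to -0.25), with an adjusted p from limma of 0.999 over all genes, and it was -0.37 without those 3 libraries, the smallest of its values over the alternatives. The other 7 ranged from -0.11 for Krt15 to 0.28 for Krt14 with all 6 libraries, and from -0.92 for Krt15 to 0.79 for Krt14 without the 3, where Krt10 was 0.13 instead of -0.05 and none of the 7 was called.

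The difference between the changes of 2 tables was tested in 1 fit of all 25 libraries with 8 group means, over the 13448 genes that passed the filter in each table. For Krt1 the change in young females exceeded that in young males by 1.29 (SE 0.49, 95% interval 0.27 to 2.32). The unadjusted limma p was 0.0156, which did not pass over all genes (limma adjusted p = 0.9995). A fit of only the libraries of these 2 tables was added after the data had been seen. There the unadjusted limma p was 9.997e-04 and the adjusted p was 0.410. The Krt1 change in young females was thus called and that in young males was not, but their difference was not shown across all genes. In young against aged females the Krt1 changes differed by 0.30 (95% interval -0.86 to 1.47). None of the 10 keratins and none of the 13448 genes (0% called) passed in any of the 3 differences tested, where 3.15% of the genes had an unadjusted limma p under 0.05 in young females against young males, 0.833% in young against aged females and 1.41% in young against aged males. Without the 3 aged male libraries, in a fit chosen after the data had been seen, none of the 13474 genes passed in young against aged males either, and Krt2 differed by -2.51 (limma adjusted p = 0.9998).

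Of the 26 keratin genes in the cluster on chromosome 15, which are type II except for Krt18, 16 were tested in young females and limma called only Krt1. Neither of its neighbours was called, with a log2 change of 0.14 for Krt2 and -0.23 for Krt77. The authors' deposited table for young females also called the type II genes Krt79 (log2 change 0.52) and Krt8 (1.65) and the type I gene Krt16 (0.78). Of the 27 type I genes on chromosome 11, 10 were tested and 2 were called. Krt13, a keratin of mucosal epithelia, rose from 6.40 ± 3.23 to 44.5 ± 21.7 normalized counts (log2 change 2.57, limma adjusted p = 0.0129). Its values ran from 3.07 to 10.6 in controls and from 17.1 to 69.1 in cKO libraries. Krt13 thus passed the filter on low values only through the cKO libraries, and its controls lay near the floor. Krt32, a hair keratin, fell from 275 ± 41.0 to 157 ± 20.6 (log2 change -0.80, limma adjusted p = 0.0152). With all libraries, no keratin of either cluster was called in the other 3 tables by limma, including Krt27, an inner root sheath keratin, which was -4.00 in aged females (limma adjusted p = 0.0516). The authors' deposited table for aged females called 10 keratins beside Krt1 and Krt24: Krt17 and Krt6b were higher, and 8 of the hair follicle (Krt27, Krt28, Krt32, Krt34, Krt35, Krt71, Krt72 and Krt75) were lower.

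**Figure D4:**
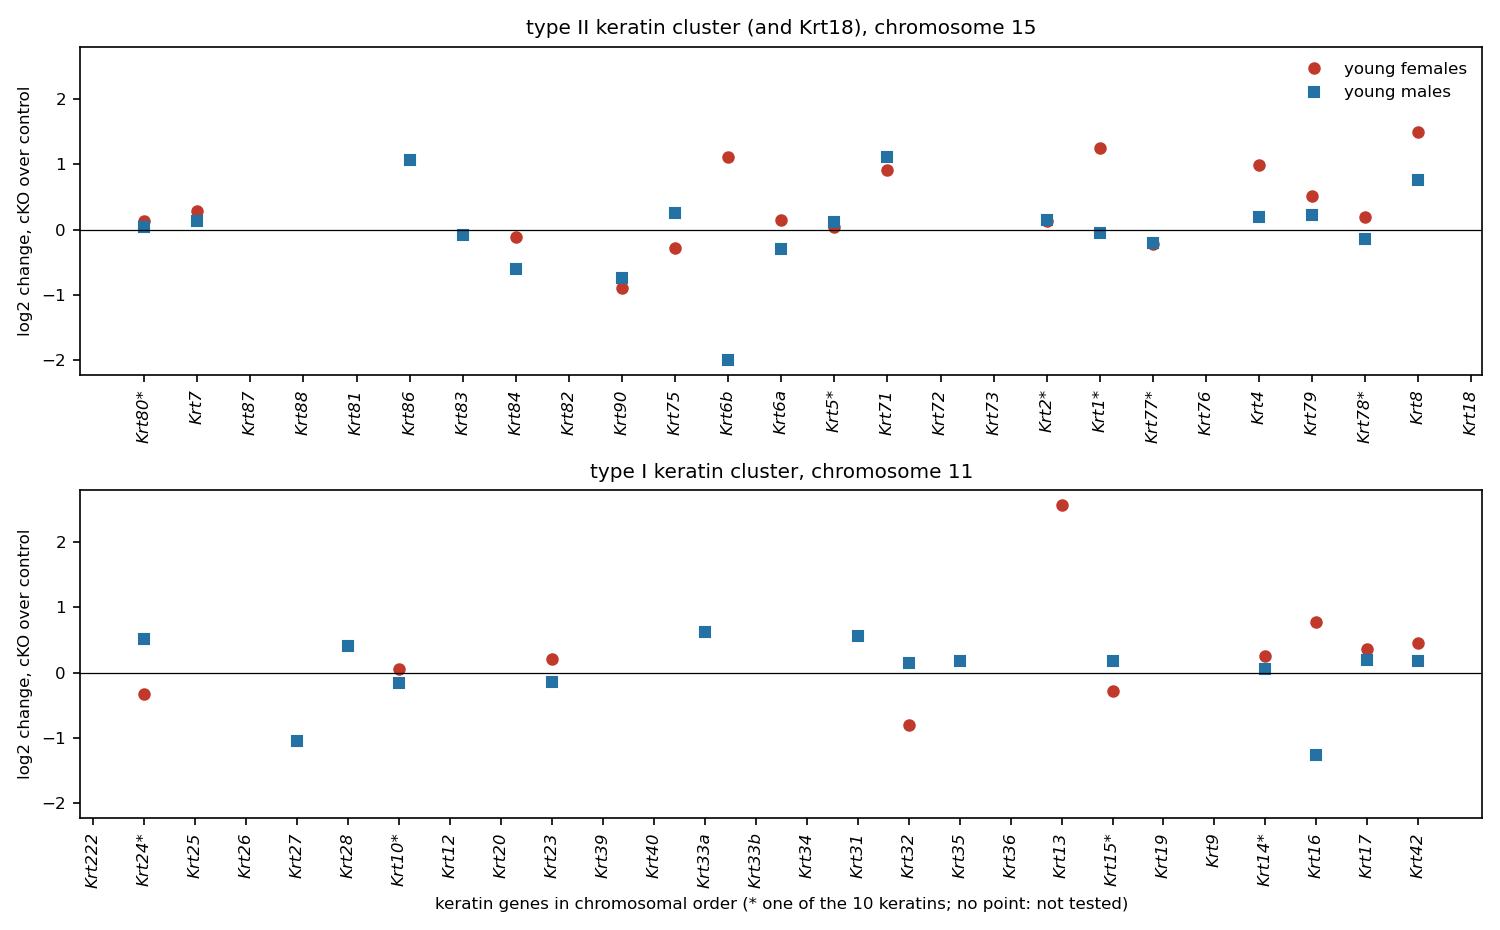
Log2 change of cKO over control for the keratin genes in the order in which they lie along the type II cluster (with Krt18) and the type I cluster, in young females (circles) and young males (squares); a gene without a point did not pass the filter. Krt1 stands at 1.25 in young females between Krt2 at 0.14 and Krt77 at -0.23.

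Other genes of the keratin filament and of epidermal layers were read from lists chosen with earlier results of these data known. Over all tested genes of young females, limma called 1.54% with a rise and 3.94% in either direction, beside which the counts of each list stand. Of 17 suprabasal differentiation genes tested in young females, 3 rose and none fell, with a median log2 change of -0.06 beside -0.01 for all genes. Ivl, for the envelope precursor involucrin, rose from 692 ± 193 to 1735 ± 441 (limma adjusted p = 0.00834), Cst6, for a cystatin protease inhibitor, from 21318 ± 2921 to 30822 ± 3270, and Skint3 from 3495 ± 587 to 5123 ± 359. Of 9 other basal layer genes 2 fell and none rose, among them Cdh3 for P-cadherin (log2 change -0.63), and the median was -0.29. Of 14 tested linker and bundling genes of keratin filaments only Tchh, for trichohyalin, was called, with a rise from 110 ± 15.2 to 225 ± 52.6 (limma adjusted p = 0.0251). None of the 4 stress keratins tested was called by limma in young females, where all 4 were above 0 with a median of 0.57. In young males, aged females and aged males limma called no gene of these lists with all libraries. Without the 3 aged male libraries that go against the pattern, 1 control and 2 cKO libraries were left, so the spread of controls could not be measured. The largest log2 changes of the stress keratins were then 6.43 for Krt6b and 2.68 for Krt16. With all 6 libraries these changes were 1.45 and 0.60. The libraries labelled cKO 4 and cKO 6 had 9551 and 2614 of Krt6b and 15724 and 9848 of Krt16. Control 6, with 4959 of Krt6b and 14383 of Krt16, lay between them. Control 5, with the highest Gh of the table (2443), did not. It had the least Krt16 of the libraries labelled control (1846) and far less Krt6b than control 6. The left-out libraries with high Gh were thus unlike each other in both keratins. Young male controls, which were scaled separately, also spread widely, from 28.8 to 5304 for Krt6b and from 1034 to 19714 for Krt16.

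Heterozygous females could be described only from the authors' deposited table, which gives group means and no values per library. None of the 10 keratins was called there, where 0.271% of the genes with an adjusted p were called. In the authors' deposited table Krt1 had a mean of 46710 in controls and 62960 in heterozygotes, with a log2 change of 0.43 (SE 0.31, adjusted p = 0.9999). In the authors' deposited table the other 9 ranged from -0.88 for Krt24 (SE 0.80) to 0.33 for Krt2 (SE 0.30). Krt14 was 0.26 in the authors' deposited table for heterozygotes and 0.25 in that for young female cKO, and Krt15 was -0.25 and -0.29, but which controls the 2 tables share is not given in the sources used here.

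How steady the ratio of 2 genes was is given as the SD over the 25 libraries of their log2 ratio, after subtracting the mean of each table. This SD is also small for genes that each vary little, so a low value alone does not show that they moved together. Among the 10 keratins the steadiest ratio was that of Krt10 and Krt78 (SD 0.144), below their own SDs of 0.223 and 0.234. Krt5 and Krt80 came next (0.223), but with own SDs of 0.163 and 0.148 their ratio varied more than either gene. Krt10 and Krt77 had 0.256. Krt5 and Krt14 had 0.266, whereas Krt1 and Krt10 had 0.590, near the SD of Krt1 itself of 0.639. Among all 13448 genes passing the filter everywhere, those most like Krt1 were Wasf1 (SD 0.355), Hist1h2bc (0.356) and Srxn1 (0.364). Among those most like Krt10 were Polb (0.111) and Abhd6 (0.121), and those most like Krt24 were Adh7 (0.439), Duox1 (0.458) and St3gal2 (0.476). Those most like Krt2 were Ifi202b (0.676), Vmn2r29 (0.724) and Thbd (0.735), not far below the SD of Krt2 itself of 0.944.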

How the data were processed

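Poly(A) RNA of mouse epidermis was sequenced from 28 samples with a strand-keeping kit, per the labels' protocols. Per the submitters' processing notes, the authors' tools were STAR and DESeq2 and the builds GRCm38 and mm10. Their versions and settings, the counter, the annotation and the filters are not given in the sources used here. The deposited tables hold a signal value per gene and library that is not a whole number, a count normalized by the authors, so no count model was used. The authors' comparison tables give, per the file headers, the mean signal of each group, the log2 change with its error, a test score and p-values.

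Of 24972 rows per table, 26 gene names turned into dates were left out. In each table limma (version 3.58.1, R 4.3.3) was fitted with an intensity trend to log2(value + 1). Genes entered the fit if the number of libraries with a value of 10 or more reached the size of the smaller group. A joint fit of the 4 tables, scaled separately, tested differences between changes. The fit was tested on simulated data. Coordinates and lengths come from GENCODE M21 (GRCm38). The alternatives were pseudocounts of 5 and 0.1, no filter, quantile normalization, median rescaling, no trend, library weights, a block for library number series, and leaving out libraries. The keratins, gene lists and tests were chosen with earlier results of these data known. All 10 keratins are named, and of each list the called genes, at most 4 by adjusted p. Some genes that this rule names are not reported here. For heterozygous females no values per library were analysed here. Normalized values give the number of reads behind a gene only roughly, so no counting interval is given.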

Additional observations from a re-analysis of the deposited data

Results flagged for a closer look

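Among the 20 groups of 4 or 5 libraries of a keratin that were examined for a library far from the others, 1 stood out. Krt80 in young female cKO replicate 2 had 37305.3 normalized counts, while the other 4 cKO libraries had 41402 to 42132. By this criterion chance marks about 1 in 20 groups. The value lies within the range of the controls, 33611 to 41012, and Krt80 was not called with or without this library (limma adjusted p = 0.358 to 0.880 over all alternatives).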

How the results depend on the processing

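Krt1 in young females was called in all 18 alternatives, with log2 changes from 1.16 to 1.33 and limma adjusted p-values from 3.97e-04, with the library series as a block, to 0.0237 in the joint fit of the 4 tables. Of the other 39 values of a keratin within a table, 1 was called in an alternative and 15 turned sign in at least 1 alternative. The value called was that of Krt2 in aged males, at 2.66 (limma adjusted p = 0.00466) without the libraries labelled control 5, control 6 and cKO 5, so that the number of keratins called there went from 0 to 1 and the number of all genes called from 2 to 58; the cause was not tested. In aged females Krt1 ranged from 0.59 to 1.30 and Krt24 from -1.09 to -0.61 over the alternatives, and neither was called by limma. The difference of the Krt1 change between young females and young males was 1.01 to 1.44, not called in any of its 23 alternatives, of which the fit of the 2 tables alone was added after the data had been seen. The number of all genes called in young females, 547, was 274 to 435 when 1 library was left out and 2011 with the library series block; in aged females, 98 became 13 to 30, 431 with the block, 43 in the joint fit, 60 with quantile normalization, 7 without a trend and 1 without the filter. The labels carry no replicate numbers. A block by the series of library numbers, which were not shown to pair libraries, changed no call among the 10 keratins. The 2 libraries a group and the near absence of Xist from the cKO libraries in aged females, and the doubtful labels in aged males, limit what those tables can show.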
